A study of Homo sapiens with 4 samples.

Results

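The genes described here are the translation initiation factor genes, taken as 48 of the 18175 genes and loci of the table. They are the rows whose symbol starts with EIF1, EIF2, EIF3, EIF4, EIF5 or EIF6, without the EIF2AK kinases, EIF1AY, names that end in P and digits, and names that end in -AS1. Of these, 47 reached an FPKM (read counts scaled to gene length and library size) of at least 1 in at least 2 libraries and were tested among 13501 genes. The exception was EIF2B5-DT, a non-coding transcript beside EIF2B5, with 8 counts in SK-MEL-28 siLINC01291, 5 in SK-MEL-28 siNC, 3 in A375 siLINC01291 and 3 in A375 siNC. The rule goes by name and not by function. It keeps EIF4A3, a helicase of the exon junction complex, EIF5A and EIF5A2, which act mainly in elongation, and the non-coding EIF3J-DT. It drops EIF4EBP1, EIF4EBP2 and EIF4EBP3, which code for the binding proteins that hold back eIF4E, and these are given beside the others as related genes.

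RNA was sequenced from SK-MEL-28 and A375, both human melanoma cell lines, treated either with siLINC01291, which targets the long non-coding transcript LINC01291, or with siNC, which is taken from its name as the negative control. A further name in the treatment label, EL, is unexplained there. Each of the 4 groups was 1 library: SK-MEL-28 siLINC01291, SK-MEL-28 siNC, A375 siLINC01291 and A375 siNC. LINC01291 had 454 counts in SK-MEL-28 siLINC01291 and 998 in SK-MEL-28 siNC, and 304 in A375 siLINC01291 and 827 in A375 siNC.

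Initiation begins when eIF2, loaded with GTP and the initiator tRNA, joins eIF1, eIF1A, eIF5 and the many-subunit eIF3 on the small ribosomal subunit. The cap-binding complex eIF4F, made of eIF4E, the scaffold eIF4G and the helicase eIF4A, brings this assembly to the capped end of an mRNA, and it scans to a start codon. There eIF5 promotes GTP hydrolysis, eIF5B joins the large subunit, and eIF2B reloads eIF2 with GTP. In melanoma, eIF4F has been studied as a point on which oncogenic BRAF and mTOR signalling converge.

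The libraries held 29351240 counts in SK-MEL-28 siLINC01291, 29416145 in SK-MEL-28 siNC, 31815336 in A375 siLINC01291 and 30879719 in A375 siNC. The EIF genes took 1.035% and 1.097% of the counts in SK-MEL-28 siLINC01291 and siNC, and 1.137% and 1.217% in A375 siLINC01291 and siNC. Of 8 melanocyte lineage markers, all 8 had a row. Their summed FPKM was 1937 and 1617 in SK-MEL-28 siLINC01291 and siNC, against 133 and 92.4 in A375 siLINC01291 and siNC, where TYR (0.09 and 0.11) and TYRP1 (0.05 and 0.15) were near 0. SOX10 made up most of the A375 sum, at 118 and 80.1 FPKM in A375 siLINC01291 and siNC, beside 147 and 127 in SK-MEL-28 siLINC01291 and siNC. TYRP1 was low in SK-MEL-28 too, at 1.83 and 1.34. Of 4 keratinocyte markers 2 had a row, with a summed FPKM of 19.9 and 18.0 in SK-MEL-28 siLINC01291 and siNC and 35.0 and 33.3 in A375 siLINC01291 and siNC. Of 4 fibroblast markers 1 had a row, of 3 endothelial and 4 leukocyte markers none did. The part of this lineage difference in the results on the lines was not tested. In bulk RNA, fewer cells of a kind and less RNA per cell cannot be told apart.

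The EIF genes were abundant mRNAs. Their median FPKM was 22.7 in SK-MEL-28 siLINC01291, 26.4 in SK-MEL-28 siNC, 32.9 in A375 siLINC01291 and 34.3 in A375 siNC, against medians of 5.38, 5.25, 5.69 and 5.52 over all tested genes in the same 4 libraries. EIF5A had the highest FPKM of the 47 in SK-MEL-28 siLINC01291 (173), A375 siLINC01291 (273) and A375 siNC (305), and EIF4G2 in SK-MEL-28 siNC (197). At the low end stood EIF3J-DT, with an FPKM of 0.79 and 0.76 in SK-MEL-28 siLINC01291 and siNC and 1.69 and 1.47 in A375 siLINC01291 and siNC.

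FPKM depends on the length the authors assigned to a gene. That length, read from the ratio of CPM (counts scaled to library size only) to FPKM, was within 10% of the GENCODE 29 exon union for 39 of the 48 genes and over 1.5 times it for 4. For EIF3E it was 37761 bases against a union of 6005, and for EIF3I 9756 against 1725. For EIF4E it was shorter than the union, 4971 against 14067. Per kilobase of a single annotated transcript, a scale added after the data were seen, EIF3I had a CPM of 225 and 220 in SK-MEL-28 siLINC01291 and siNC and of 328 and 317 in A375 siLINC01291 and siNC, where its FPKM was 33.6, 32.8, 48.96 and 47.4. The ratios between libraries below do not depend on the length.

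**Figure D1:**
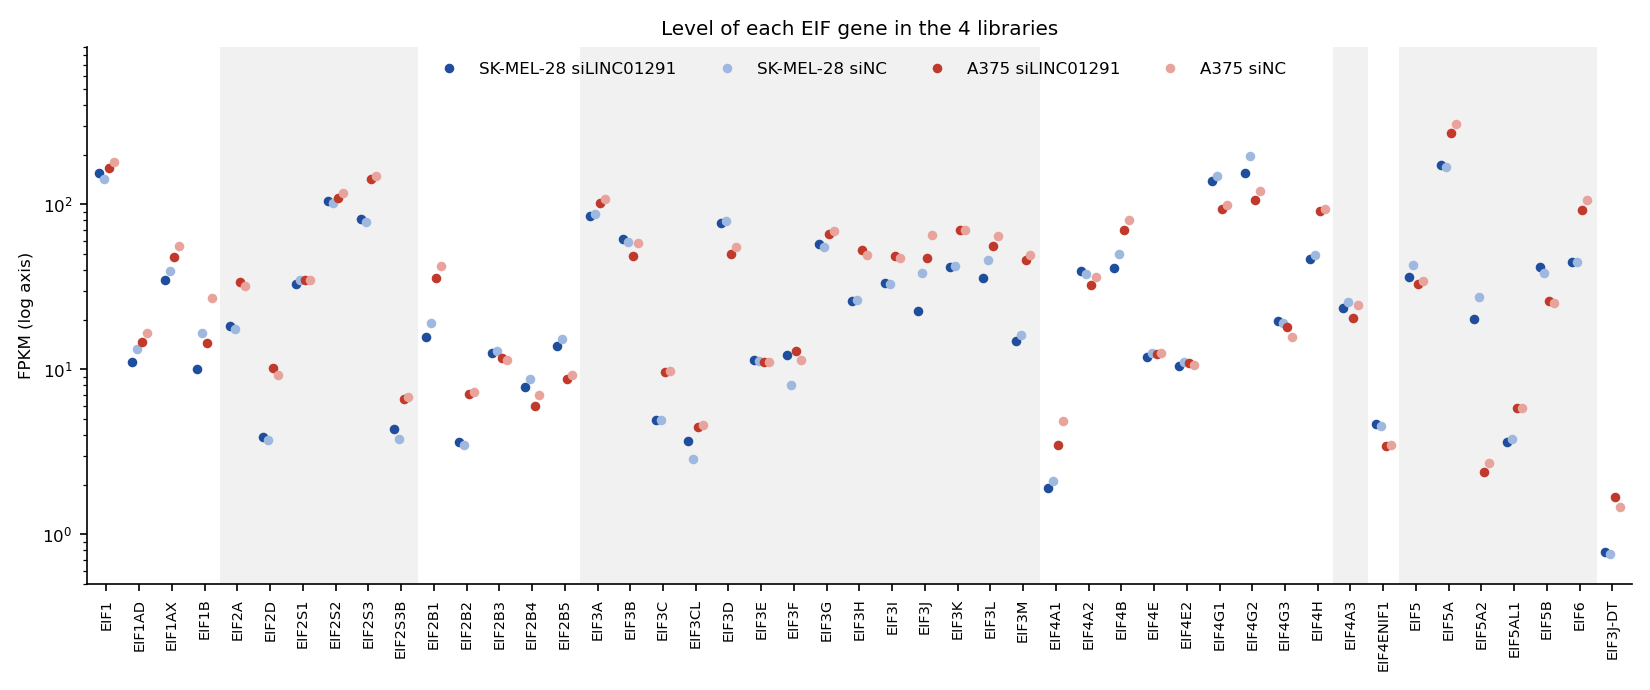
FPKM on a log axis (y) of the 47 tested EIF genes (x, grouped by role from eIF1 on the left to eIF5, eIF5A, eIF5B and eIF6 on the right, in alternating bands), 1 point per library. EIF5A and EIF1 lie at the top in A375 and EIF5A, EIF4G2, EIF4G1 and EIF1 in SK-MEL-28, EIF5A2 shows the widest gap between the lines, and EIF3J-DT lies lowest.

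The first comparison set siLINC01291 against siNC. EIF1B, which codes for a close relative of the start codon factor eIF1, was the one EIF gene that fell, and none rose. Most of the others stood slightly below siNC, by far less than EIF1B. In edgeR's quasi-likelihood test over both lines with Benjamini-Hochberg adjustment over all 13501 genes, 1 of 47 EIF genes fell and 0 rose, against 91 (0.674%) and 30 (0.222%) of all genes. At an unadjusted p under 0.05, 11 EIF genes were lower and 1 was higher, against 1130 and 1152 of all genes. This test has 1 residual degree of freedom, since the treatment was repeated only across the lines, and nothing says the libraries stem from separate cultures.

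EIF1B (ENSG00000114784, chromosome 3, 40309684 to 40312424, + strand of GRCh38) had 563 counts in SK-MEL-28 siLINC01291 and 932 in SK-MEL-28 siNC, and 871 in A375 siLINC01291 and 1595 in A375 siNC. Both siLINC01291 libraries lay below both siNC libraries in counts and also in normalised CPM (scaled by TMM factors), where the values were 20.3 and 25.7 with siLINC01291 and 34.1 and 49.8 with siNC. The level left with siLINC01291 was 59.4% of siNC in SK-MEL-28 and 51.5% in A375. Over both lines the log2 change of EIF1B was -0.86 (SE 0.11, adjusted p = 0.0375 by edgeR, lower in 2 of 2 lines). The call was lost when only genes with an FPKM of at least 5 were tested (adjusted p = 0.0632), with limma on log2(FPKM + 1) (adjusted p = 0.0973) and in edgeR without the cell line term (adjusted p = 1). Few genes of any kind fell in these settings: 27 of 7997, 5 of 13501 and 0 of 13501 in the same order. EIF1B-AS1 overlaps EIF1B on the other strand in GENCODE and had no row analysed here. No source says whether counting used strand, so reads from it cannot be told apart from those of EIF1B.

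EIF1, the main gene of this start codon factor, had 16632 counts in SK-MEL-28 siLINC01291 and 15272 in SK-MEL-28 siNC, and 19164 in A375 siLINC01291 and 20254 in A375 siNC. The log2 ratio of siLINC01291 to siNC was 0.10 in SK-MEL-28 and -0.16 in A375, and the change over both lines was -0.03 (SE 0.09, adjusted p = 0.896 by edgeR). By FPKM, EIF1B made up 6.10% of the pair EIF1 and EIF1B in SK-MEL-28 siLINC01291 and 10.5% in SK-MEL-28 siNC, and 8.02% in A375 siLINC01291 and 13.1% in A375 siNC. The summed normalised CPM of the pair was 619 in SK-MEL-28 siLINC01291 and 593 in SK-MEL-28 siNC, and 590 in A375 siLINC01291 and 682 in A375 siNC. EIF1 thus carried most of the level in each of the 4 libraries.

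EIF3J, which codes for a loosely bound eIF3 subunit that sits near the mRNA entry channel, came next. It had 2085 counts in SK-MEL-28 siLINC01291 and 3528 in SK-MEL-28 siNC, and 4723 in A375 siLINC01291 and 6347 in A375 siNC. The level left was 58.1% of siNC in SK-MEL-28 and 70.2% in A375. In normalised CPM the groups overlapped, since A375 siLINC01291 (139) lay above SK-MEL-28 siNC (129). Within each line the siLINC01291 library was lower, at 75.04 in SK-MEL-28, and A375 siNC stood at 198. The log2 change of EIF3J over both lines was -0.64 (SE 0.10, adjusted p = 0.0555 by edgeR, lower in 2 of 2 lines) and did not pass. It passed in DESeq2 (adjusted p = 0.00116) and without a filter on low expression in edgeR (adjusted p = 0.0161). In those fits 203 of 10098 and 238 of 18175 genes fell.

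**Figure D2:**
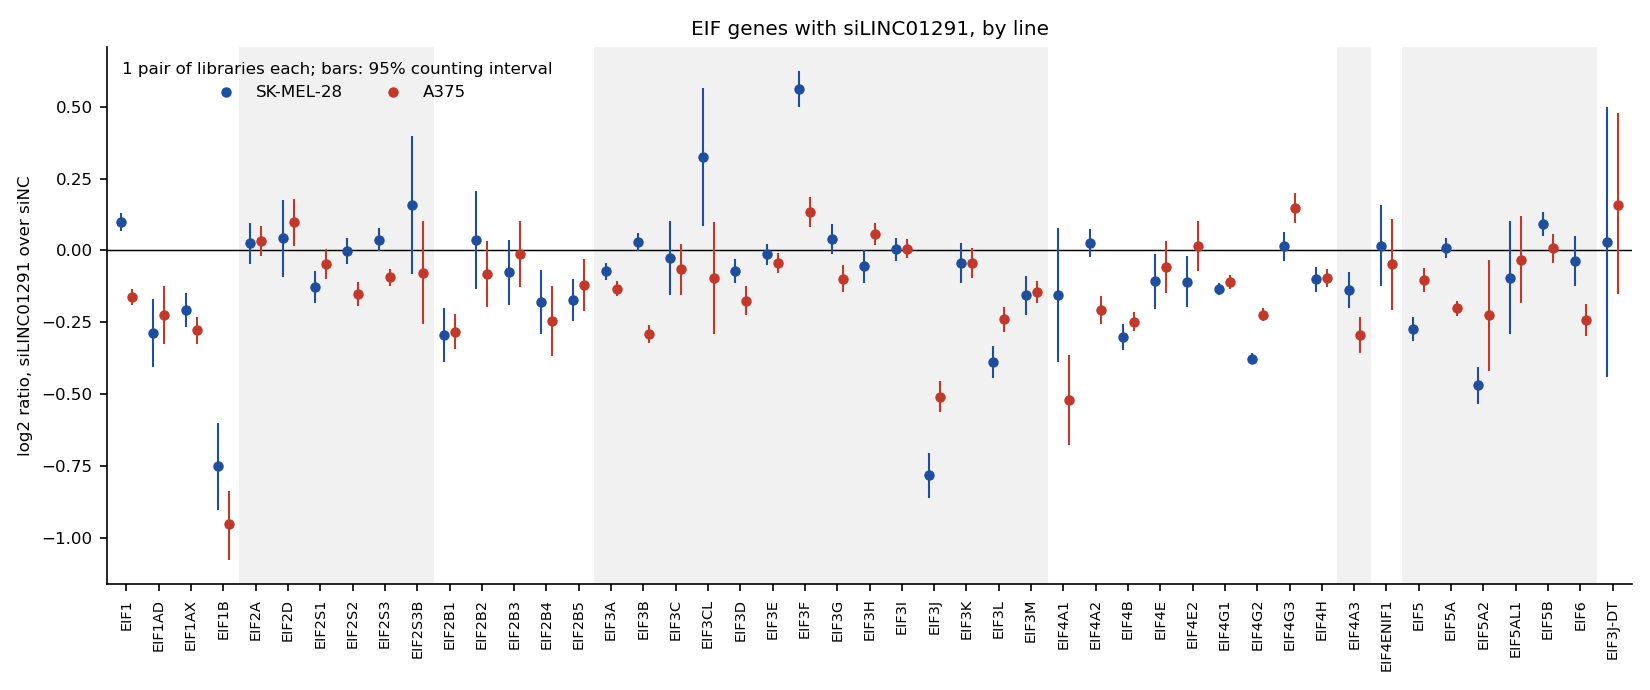
Log2 ratio of siLINC01291 to siNC (y) for the 47 tested EIF genes (x, by role), in SK-MEL-28 and in A375. Points are 1 pair of libraries each and bars are 95% intervals that cover counting error only. EIF1B lies lowest in A375 and EIF3J in SK-MEL-28, and EIF3F lies highest in SK-MEL-28 at 0.56.

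An earlier search of the same data found that genes with the word TCTATGAA, or with its first or last 7 bases, in the 3' UTR were lower with siLINC01291. The search below uses the same libraries and adds no independent evidence. It was extended to the coding sequence of 1 principal GENCODE 29 transcript per gene after the data were seen. The sites shown are the full word in 3' UTRs, those of EIF1B and EIF3J, which had the lowest log2 changes, and further examples chosen with their values known. EIF5A2, the next lowest, held no word. Of the genes shown, only EIF3F lay above 0. EIF5B (0.05) and EIF3CL (0.11) also held a word and are not shown. Nor is the related gene EIF4EBP1, with TCTATGA in its coding sequence and a log2 change of -0.16. Capitals mark the word in the transcript's 5′ to 3′ direction, on GRCh38.
EIF1B, 3' UTR, chr3:40312344-40312373, + strand: ataaaaaaaaaTCTATGAAtctttgtgagc
EIF2B1, 3' UTR, chr12:123621021-123621050, - strand: ttcaaataaacTCTATGAAagacgctgatg
EIF4B, 3' UTR, chr12:53042079-53042108, + strand: caaaaatatctTCTATGAAaatgatttgta
EIF3F, 3' UTR, chr11:7998201-7998230, + strand: gggttgggttcCTATGAAcctctgggcaca
EIF3J, coding, chr15:44557508-44557537, + strand: tggaatagatgCTATGAAcccatcttcaag
EIF3J, coding, chr15:44561120-44561149, + strand: tatgtacaagaCTATGAAgacttcatgtga
EIF3L, coding, chr22:37877808-37877837, + strand: tgacccacaagTCTATGAAgaacttttcag
EIF4EBP2, 3' UTR, chr10:70423639-70423668, + strand: tttcttttgaaCTATGAAaagaccctgttt

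The full word stood in the 3' UTR of 3 of 46 EIF genes with a searched transcript (6.52%), against 388 of 10868 genes (3.57%). These were EIF1B, EIF2B1 and EIF4B, and their median log2 change over both lines was -0.29, against -0.24 for the 388. A 7-base word alone stood in the 3' UTR of EIF2B4, EIF3A, EIF3F and EIF4E (8.70%, against 10.9% of genes), with a median of -0.09, against -0.08. EIF3F had the highest log2 change of the 47 EIF genes, and its site lies in the 3' UTR, of 5840 bases, of a transcript model of 7540 bases. The sites of EIF4E, which was lower in both lines, likewise lie in a long 3' UTR, of 9344 bases in a model of 11523 bases.

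In 11 EIF genes (23.9%, against 18.3% of genes) a word stood in the coding sequence only, and their median log2 change was -0.09, against -0.03. EIF3J, EIF3L and EIF4G2 were among these 11, and so were EIF5B (0.05) and EIF3CL (0.11). EIF3L and EIF3B held the full word there, with log2 changes of -0.31 and -0.13, and EIF3B had a log2 ratio of 0.03 in SK-MEL-28. The 28 with neither word had a median of -0.07, against 0.03 for 7314 genes. EIF5A2 (-0.36) is the lowest of the 28. The groups also differ in 3' UTR length. Over all genes its median was 3043.5 bases with the full word there and 2895 with a 7-base word only. It was 1084 with a word in the coding sequence only and 944 with neither. The part of this length in the log2 changes was not tested. Over all annotated transcripts, EIF1B held the full word in 1 of 4, EIF3L in 6 of 14, EIF3J in 0 of 7 and EIF4G2 in 0 of 32. A 7-base word stood in 6 of 7 transcripts of EIF3J and 15 of 32 of EIF4G2. EIF1 held no word in any of its 7 annotated transcripts and EIF5A2 none in its 5, and LINC01291 held the full word in 3 of 3. No share over other genes was taken for these transcript counts. The siRNA's own sequence was not at hand, so the words were not set against it.

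**Figure D3:**
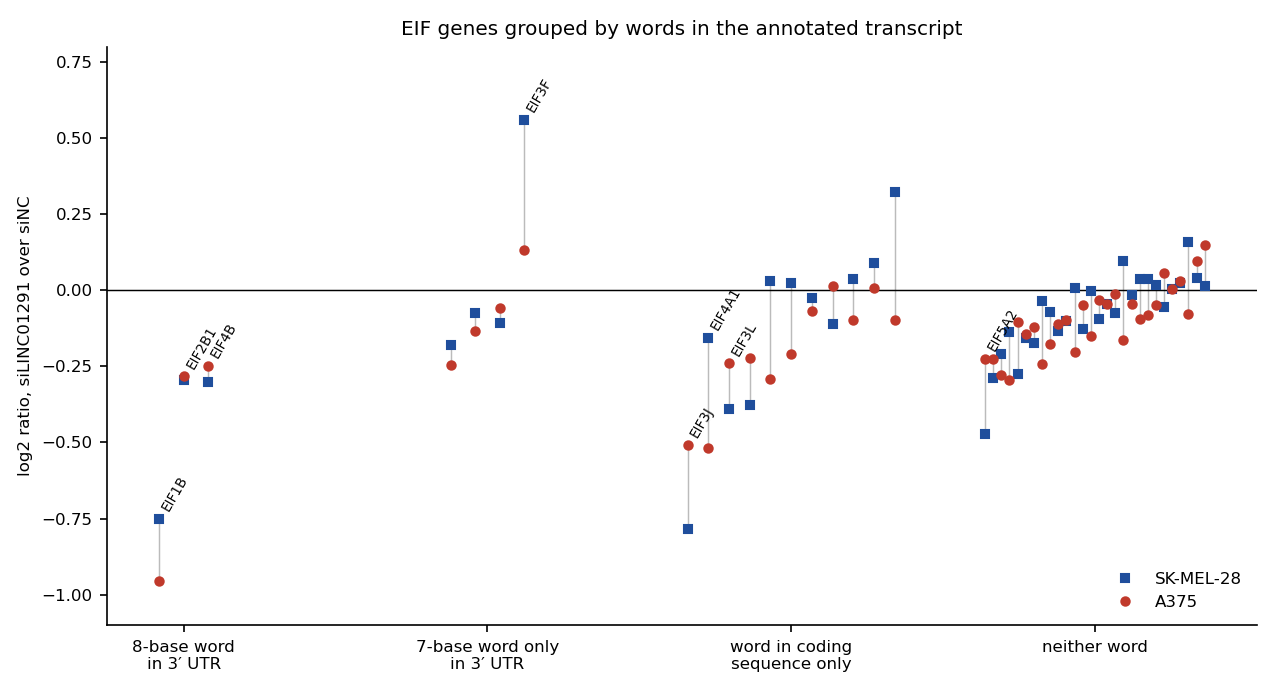
Log2 ratio of siLINC01291 to siNC (y) in SK-MEL-28 (squares) and A375 (circles) for 46 EIF genes in 4 groups (x) by where a word was found in 1 annotated transcript, with a grey line joining the lines of a gene. EIF1B, EIF2B1 and EIF4B lie below 0 in both lines, EIF3F above 0, and the genes with neither word spread around a median of -0.07.

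Taken over all EIF genes, the shift was small and went one way in most. In SK-MEL-28, 30 of 46 expressed EIF genes (65.2%) had a log2 ratio below 0, with a median of -0.07, against 47.9% and a median of 0.01 over 12336 genes. In A375, 38 of 47 (80.9%) were below 0, with a median of -0.10, against 49.8% and a median of 0.00 over 13244 genes. Of 46 expressed in both lines, 28 were lower in both, 6 were higher in both and 12 had opposite signs, and over all genes 64.8% had the same sign in both lines. Over both lines 37 of 47 were below 0, with a median log2 change of -0.09, against 0.01 over all tested genes (31 of 47, -0.05 and 0.04 when scaled by library totals). Among genes with a mean FPKM of at least 10, a limit set after the data were seen, 31 of 37 EIF genes (83.8%) were below 0, against 54.6% of 4606 genes, with medians of -0.10 and -0.02. Scaled by library totals, these became 27 of 37 (73.0%) and 44.5%, with medians of -0.06 and 0.02.

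Shifts of at least 1.5-fold were rare. In SK-MEL-28, EIF1B and EIF3J were lower by that much, 2 of 46, against 616 of 12336 genes (4.99%), and 0 were higher, against 796 (6.45%). In A375, EIF1B alone was lower by that much, 1 of 47, against 507 of 13244 genes (3.83%), and 0 were higher, against 539 (4.07%). These shares are near the background or below it, and they have no replicate check.

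EIF1AX codes for eIF1A, another scanning factor. The gene had 4499 counts in SK-MEL-28 siLINC01291 and 5108 in SK-MEL-28 siNC, and 6729 in A375 siLINC01291 and 7702 in A375 siNC. Its log2 change over both lines was -0.24 (SE 0.08, adjusted p = 0.213 by edgeR). EIF1AD, named for an eIF1A-like domain, is placed beside it by name and not as a known scanning factor. It had log2 ratios of -0.29 in SK-MEL-28 and -0.22 in A375 (adjusted p = 0.260 by edgeR). Both were lower in 2 of 2 lines and neither passed.

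The genes of eIF2, which carries the initiator tRNA, lay close to siNC. EIF2S1, coding for the alpha subunit that stress kinases phosphorylate, had an FPKM of 32.7 in SK-MEL-28 siLINC01291 and 35.1 in SK-MEL-28 siNC, and 34.9 in A375 siLINC01291 and 35.0 in A375 siNC. EIF2S2 (beta) had 104 and 102 FPKM in SK-MEL-28 siLINC01291 and siNC, and 109 and 117 in A375 siLINC01291 and siNC. EIF2S3 (gamma) had 82.0 and 78.4 FPKM in SK-MEL-28 siLINC01291 and siNC, and 142 and 148 in A375 siLINC01291 and siNC. The log2 ratios of EIF2S1, EIF2S2 and EIF2S3 were -0.13, -0.0018 and 0.04 in SK-MEL-28 and -0.05, -0.15 and -0.09 in A375. EIF2A and EIF2D, which code for alternative initiator tRNA factors, had log2 ratios of 0.02 and 0.04 in SK-MEL-28 and of 0.03 and 0.10 in A375. No gene of this group passed, with adjusted p between 0.662 and 0.933 in edgeR. EIF2S3B is a near copy of EIF2S3 and can share its reads, so its values (309 and 272 counts in SK-MEL-28 siLINC01291 and siNC, 514 and 512 in A375 siLINC01291 and siNC) are uncertain.

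Of the 5 genes of the eIF2B exchange factor, 4 had a log2 ratio below 0 in SK-MEL-28 and 5 in A375 (4 in each line when scaled by library totals). EIF2B1, the alpha subunit, had 1689 counts in SK-MEL-28 siLINC01291 and 2038 in SK-MEL-28 siNC, and 4156 in A375 siLINC01291 and 4773 in A375 siNC. Its log2 ratios were -0.30 in SK-MEL-28 and -0.28 in A375, and the change over both lines was -0.29 (SE 0.09, adjusted p = 0.182 by edgeR). In SK-MEL-28 the log2 ratio was -0.18 for EIF2B4 (delta), -0.17 for EIF2B5, the catalytic epsilon subunit, and -0.08 for EIF2B3 (gamma), and in A375 these were -0.25, -0.12 and -0.01. EIF2B2 (beta) stood at 0.04 in SK-MEL-28 and -0.08 in A375. None of the 5 passed.

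In eIF3, the scaffold that holds the preinitiation complex, EIF3J and EIF3F marked the ends and the core subunits lay between. EIF3F, an MPN-domain subunit, had 5414 counts in SK-MEL-28 siLINC01291 and 3605 in SK-MEL-28 siNC, and 6235 in A375 siLINC01291 and 5366 in A375 siNC. It was higher with siLINC01291 in 2 of 2 lines, with log2 ratios of 0.56 in SK-MEL-28 and 0.13 in A375, and its change of 0.35 did not pass (SE 0.12, adjusted p = 0.221 by edgeR). Its pseudogene EIF3FP3 had log2 ratios of 0.49 in SK-MEL-28 and 0.04 in A375, and reads of the pair can be exchanged. EIF3L had 4545 counts in SK-MEL-28 siLINC01291 and 5847 in SK-MEL-28 siNC, and 7683 in A375 siLINC01291 and 8565 in A375 siNC. The log2 change of EIF3L was -0.31 (SE 0.08, adjusted p = 0.151 by edgeR).

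None of the other eIF3 genes passed. EIF3A and EIF3B, the core scaffold subunits, had log2 ratios of -0.07 and 0.03 in SK-MEL-28 and of -0.13 and -0.29 in A375. EIF3D, a subunit that can itself contact the mRNA cap, had -0.07 in SK-MEL-28 and -0.18 in A375, and EIF3M had -0.16 in SK-MEL-28 and -0.14 in A375. EIF3E, EIF3H, EIF3I and EIF3K lay between -0.06 and 0.06 in both lines, and EIF3G had 0.04 in SK-MEL-28 and -0.10 in A375. EIF3C and EIF3CL are near copies, so the split of reads between them is uncertain. EIF3C had 1004 and 1005 counts in SK-MEL-28 siLINC01291 and siNC and 2130 and 2105 in A375 siLINC01291 and siNC, and EIF3CL had 329 and 258 counts in SK-MEL-28 siLINC01291 and siNC and 434 and 438 in A375 siLINC01291 and siNC. The log2 ratio of EIF3CL was 0.32 in SK-MEL-28 and -0.10 in A375, and that of EIF3C was -0.03 and -0.07 in the same lines. Over the 14 genes of the complex the median log2 ratio was -0.04 in SK-MEL-28 and -0.10 in A375 (-0.0067 and -0.06 when scaled by library totals). Of these 14, 0 passed in edgeR and 1 (EIF3J) in DESeq2, where 203 of all 10098 genes fell and 99 rose. In edgeR, EIF3J and EIF3L were below an unadjusted p of 0.05 on the lower side and EIF3F on the higher side. Of all 13501 genes, 1130 were lower and 1152 higher at that p, so these genes say little about the complex.

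EIF3J shares its promoter region with a non-coding transcript that was not lower with siLINC01291. EIF3J-DT runs the other way, and the annotated starts are 134 bases apart (chromosome 15, EIF3J from 44537057 to 44563029 on the + strand, EIF3J-DT from 44527257 to 44536923 on the - strand). EIF3J-DT had 80 counts in SK-MEL-28 siLINC01291 and 77 in SK-MEL-28 siNC, and 186 in A375 siLINC01291 and 157 in A375 siNC, with log2 ratios of 0.03 in SK-MEL-28 and 0.16 in A375. Its counting intervals ran from -0.44 to 0.50 in SK-MEL-28 and from -0.15 to 0.48 in A375, and both lie above the log2 ratios of EIF3J, -0.78 in SK-MEL-28 and -0.51 in A375. The RefSeq promoter of EIF3J on GRCh38.p14 (chr15:44536897-44537196, + strand) is shown because it holds both GENCODE starts; capitals mark the last 50 bases, which RefSeq places in the EIF3J transcript. Its GC content is 72.0%, against a median of 65.2% over 56 promoters of 41 EIF genes and of 58.7% over 35116 promoters in the table. Promoters of EIF5 (80.7%), EIF5A (78.0%) and EIF4H (74.0%), among others, were higher still.
EIF3J promoter: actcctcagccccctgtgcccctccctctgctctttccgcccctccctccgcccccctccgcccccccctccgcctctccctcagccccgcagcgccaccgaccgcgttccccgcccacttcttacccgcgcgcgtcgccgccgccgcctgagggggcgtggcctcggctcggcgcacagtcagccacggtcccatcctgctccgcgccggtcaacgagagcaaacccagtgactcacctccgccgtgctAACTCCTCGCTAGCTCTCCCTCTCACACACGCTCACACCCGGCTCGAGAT

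Among the eIF4 genes, EIF4G2, EIF4B, EIF4A1, EIF4A3, EIF4E, EIF4G1 and EIF4H were lower in both lines without passing. EIF4G3 was higher in both, and EIF4A2, EIF4E2 and EIF4ENIF1 had opposite signs. The genes for the scaffold relative EIF4G2 and the helicase cofactor EIF4B had the lowest adjusted p of these. EIF4G2, whose protein lacks the eIF4E-binding part and supports cap-independent initiation, had 38683 counts in SK-MEL-28 siLINC01291 and 49384 in SK-MEL-28 siNC, and 28827 in A375 siLINC01291 and 31769 in A375 siNC. Its log2 change over both lines was -0.30 (SE 0.07, adjusted p = 0.123 by edgeR). EIF4B had 7334 counts in SK-MEL-28 siLINC01291 and 8885 in SK-MEL-28 siNC, and 13463 in A375 siLINC01291 and 15097 in A375 siNC, with a log2 change of -0.28 (SE 0.08, adjusted p = 0.157 by edgeR). The EIF4B pseudogenes EIF4BP3, EIF4BP6 and EIF4BP7 had log2 ratios between -0.59 and -0.22, and may take reads from it.

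The genes of eIF4F itself, given here without EIF4A1, did not pass either. EIF4E, the cap-binding subunit, had an FPKM of 11.9 in SK-MEL-28 siLINC01291 and 12.6 in SK-MEL-28 siNC, and 12.4 in A375 siLINC01291 and 12.5 in A375 siNC, with log2 ratios of -0.11 in SK-MEL-28 and -0.06 in A375. EIF4E2, a cap-binding repressor, had 10.5 and 11.1 FPKM in SK-MEL-28 siLINC01291 and siNC, and 10.99 and 10.6 in A375 siLINC01291 and siNC. Each of these genes thus kept about the same FPKM across the 4 libraries, and EIF4E3 had no row analysed here. How EIF4E and EIF4E2 compare in level depends on the length used, since that of EIF4E was 4971 bases against a GENCODE union of 14067. Per kilobase of 1 annotated transcript, the CPM was 5.14 to 5.43 for EIF4E and 42.8 to 45.2 for EIF4E2. The transcript used was 11523 bases long for EIF4E, with a 3' UTR of 9344 bases, and 1604 bases long for EIF4E2, so this gap rests on that choice. EIF4G1, the main scaffold, had log2 ratios of -0.13 in SK-MEL-28 and -0.11 in A375. EIF4G3, a second scaffold gene, had 19.6 and 19.0 FPKM in SK-MEL-28 siLINC01291 and siNC, and 18.0 and 15.8 in A375 siLINC01291 and siNC, which gave the highest log2 ratio of the coding EIF genes in A375 (0.15). The helicase gene EIF4A2 had 39.2 and 37.8 FPKM in SK-MEL-28 siLINC01291 and siNC, and 32.4 and 36.5 in A375 siLINC01291 and siNC, with log2 ratios of 0.02 in SK-MEL-28 and -0.21 in A375. The exon junction helicase gene EIF4A3 had 23.6 and 25.5 FPKM in SK-MEL-28 siLINC01291 and siNC, and 20.6 and 24.5 in A375 siLINC01291 and siNC, with log2 ratios of -0.14 in SK-MEL-28 and -0.30 in A375. EIF4H, another helicase cofactor, had -0.10 in both lines, and EIF4ENIF1, which carries eIF4E into the nucleus, had 0.02 in SK-MEL-28 and -0.05 in A375. None of them passed.

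EIF4A1, the main helicase gene, is uncertain in this table. It had 294 counts in SK-MEL-28 siLINC01291 and 322 in SK-MEL-28 siNC, and 581 in A375 siLINC01291 and 787 in A375 siNC. Its pseudogene EIF4A1P10 had more, with 913 and 823 in SK-MEL-28 siLINC01291 and siNC and 1218 and 1378 in A375 siLINC01291 and siNC. In GENCODE the gene lies within the readthrough locus SENP3-EIF4A1 and hosts small nucleolar RNAs on the same strand. The log2 ratios of EIF4A1 were -0.16 in SK-MEL-28 and -0.52 in A375, and the change over both lines did not pass (adjusted p = 0.277 by edgeR).

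The related gene EIF4EBP2, whose protein binds eIF4E and blocks its contact with eIF4G, had a lower log2 change over both lines than any EIF4 gene that was tested, though in A375 alone EIF4A1 was lower. It had 2251 counts in SK-MEL-28 siLINC01291 and 4788 in SK-MEL-28 siNC, and 2930 in A375 siLINC01291 and 3702 in A375 siNC. Its log2 ratios were -1.11 in SK-MEL-28 and -0.42 in A375, and the change of -0.77 over both lines did not pass (SE 0.16, adjusted p = 0.0987 by edgeR; adjusted p = 0.00565 in DESeq2). EIF4EBP1, the better known binding protein, had 3519 counts in SK-MEL-28 siLINC01291 and 3473 in SK-MEL-28 siNC, and 3715 in A375 siLINC01291 and 4345 in A375 siNC, with log2 ratios of -0.01 in SK-MEL-28 and -0.31 in A375. EIF4EBP3 had 11, 5, 5 and 5 counts in SK-MEL-28 siLINC01291, SK-MEL-28 siNC, A375 siLINC01291 and A375 siNC and was not tested.

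**Figure D4:**
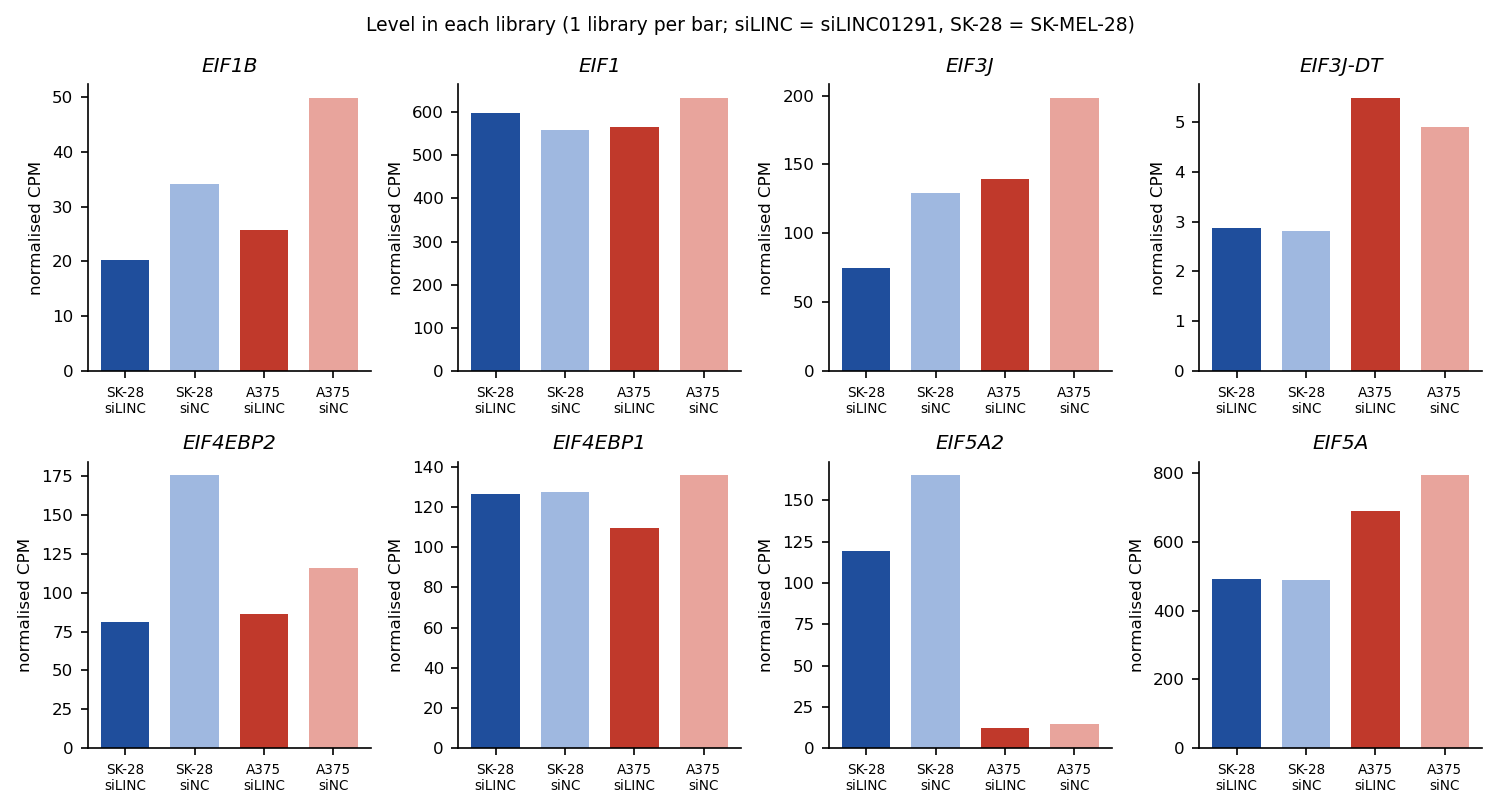
Normalised CPM (y, from 0) in each library (x, 1 bar per library) of EIF1B, EIF1, EIF3J, EIF3J-DT, EIF4EBP2, EIF4EBP1, EIF5A2 and EIF5A. The siLINC01291 bar is below the siNC bar of its line for EIF1B, EIF3J, EIF4EBP2 and EIF5A2, and EIF5A2 is higher in SK-MEL-28 than in A375 with either siRNA.

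Of the EIF5 and EIF6 genes, EIF5A2, EIF5, EIF6 and EIF5AL1 were lower in both lines and did not pass. EIF5A2, a second gene for the hypusine-bearing factor eIF5A, had 3308 counts in SK-MEL-28 siLINC01291 and 4506 in SK-MEL-28 siNC, and 424 in A375 siLINC01291 and 468 in A375 siNC. Its log2 change over both lines was -0.36 (SE 0.11, adjusted p = 0.173 by edgeR). EIF5A itself had log2 ratios of 0.01 in SK-MEL-28 and -0.20 in A375, and EIF5 had -0.27 in SK-MEL-28 and -0.10 in A375. EIF5B, the subunit-joining GTPase, had 0.09 in SK-MEL-28 and 0.01 in A375. EIF6, which keeps the large subunit from joining early, had -0.04 in SK-MEL-28 and -0.24 in A375. EIF5AL1 and the pseudogene EIF5AP4 are near copies of EIF5A, so their values are uncertain.

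In the pathway around these factors, 0 of 13 genes for eIF2 kinases and phosphatase adaptors, 0 of 21 cap-dependent partners and regulators, and 0 of 11 scanning, reinitiation and recycling factors passed in either direction. The same held for 8 hypusine and methionine enzymes, 8 elongation factors and 5 termination factors. Of 8 mitochondrial translation factors 1 fell, GFM2, which codes for a mitochondrial recycling factor. Of all 13501 tested genes 0.674% fell and 0.222% rose, so the calls in lists this short say little about the pathway. GFM2 had 780 counts in SK-MEL-28 siLINC01291 and 1477 in SK-MEL-28 siNC, and 1112 in A375 siLINC01291 and 1751 in A375 siNC (log2 change -0.84, SE 0.11, adjusted p = 0.0370 by edgeR). The median log2 changes of the 7 lists lay between -0.07 and 0.03.

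The second comparison set SK-MEL-28 against A375, with both siRNAs in each line. Here the EIF genes differed far more than between siRNAs. EIF5A2 was much higher in SK-MEL-28, with an FPKM of 20.3 and 27.6 in SK-MEL-28 siLINC01291 and siNC, against 2.40 and 2.73 in A375 siLINC01291 and siNC. EIF3M, EIF2D and EIF2B1 were at least 2-fold lower in SK-MEL-28, with EIF2B1 just past that limit (log2 difference -1.004) and just short of it with DESeq2 size factors (-0.9989), in DESeq2 (-0.9989) and without a filter on low expression (-0.9756). In edgeR's quasi-likelihood test with the siRNA as covariate, 22 of 47 were lower and 14 higher in SK-MEL-28, against 36.3% (4895) and 36.1% (4877) of all genes. Scaled by library totals, which moves the median of all genes from -0.02 to -0.19 on the log2 scale, the split was 26 lower and 9 higher. Under that scaling EIF2B3, EIF3B, EIF4A2, EIF4A3 and EIF4G3 no longer passed as higher, and EIF1AD, EIF3A, EIF3CL and EIF3G passed as lower. Differences of at least 2-fold were fewer than among all genes, 3 lower against 17.4% (2345) and 1 higher against 17.7% (2384). The line test too has 1 residual degree of freedom. The libraries of a line differ in siRNA, and nothing says they stem from separate cultures. The p-values between lines therefore do not rest on replicate cultures of a line.

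The log2 difference of EIF5A2 was 3.38 (SE 0.11, adjusted p = 1.89e-06 by edgeR), 3.25 between the siLINC01291 libraries and 3.49 between the siNC libraries. Both SK-MEL-28 libraries lay above both A375 libraries. EIF5A went the other way, with an FPKM of 173 and 169 in SK-MEL-28 siLINC01291 and siNC, against 273 and 305 in A375 siLINC01291 and siNC (log2 difference -0.59, SE 0.08, adjusted p = 7.69e-04 by edgeR). EIF5A2 thus made up 10.5% and 14.1% of the FPKM of the pair in SK-MEL-28 siLINC01291 and siNC, against 0.87% and 0.89% in A375 siLINC01291 and siNC.

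EIF3M, which codes for a PCI-domain subunit of eIF3, had 3242 and 3553 counts in SK-MEL-28 siLINC01291 and siNC, against 10890 and 11361 in A375 siLINC01291 and siNC (log2 difference -1.45, SE 0.08, adjusted p = 1.27e-05 by edgeR). EIF2D had 926 and 884 counts in SK-MEL-28 siLINC01291 and siNC, against 2625 and 2315 in A375 siLINC01291 and siNC (log2 difference -1.19). EIF2B1 had 1689 and 2038 counts in SK-MEL-28 siLINC01291 and siNC, against 4156 and 4773 in A375 siLINC01291 and siNC (log2 difference -1.004). For these 3 genes both SK-MEL-28 libraries lay below both A375 libraries.

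Within eIF2B and within eIF3, some subunit genes were higher and some lower in SK-MEL-28, as about equal shares of all genes were (36.1% higher and 36.3% lower). In eIF2B, EIF2B2 had an FPKM of 3.62 and 3.46 in SK-MEL-28 siLINC01291 and siNC, against 7.13 and 7.33 in A375 siLINC01291 and siNC (log2 difference -0.86). EIF2B5 had 13.8 and 15.3 FPKM in SK-MEL-28 siLINC01291 and siNC, against 8.73 and 9.23 in A375 siLINC01291 and siNC (log2 difference 0.86). EIF2B1 and EIF2B2 were thus lower in SK-MEL-28, and EIF2B5, EIF2B4 (0.52) and EIF2B3 (0.30) were higher. In eIF3, 7 of 14 genes were lower, among them EIF3C (-0.82), EIF3H (-0.81) and EIF3J (-0.75), and 2 were higher, EIF3D (0.74) and EIF3B (0.34). EIF3D had an FPKM of 77.2 and 79.6 in SK-MEL-28 siLINC01291 and siNC, against 50.3 and 55.3 in A375 siLINC01291 and siNC, while EIF3C had 4.93 and 4.92 FPKM in SK-MEL-28 siLINC01291 and siNC, against 9.63 and 9.81 in A375 siLINC01291 and siNC. In eIF2, EIF2S3 was lower (-0.69), and EIF2S1 and EIF2S2 did not pass, with log2 differences of 0.12 and 0.04 (adjusted p = 0.232 and 0.708 by edgeR).

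The EIF4G scaffold genes were higher in SK-MEL-28 and the helicase cofactor genes EIF4B and EIF4H were lower. EIF4G2 had an FPKM of 155 and 197 in SK-MEL-28 siLINC01291 and siNC, against 106 and 121 in A375 siLINC01291 and siNC (log2 difference 0.79). EIF4G1 had 138 and 149 FPKM in SK-MEL-28 siLINC01291 and siNC, against 94.4 and 99.2 in A375 siLINC01291 and siNC (0.73), and EIF4G3 had a log2 difference of 0.36, which did not pass when scaled by library totals (0.19). EIF4H (-0.78), EIF4B (-0.56) and the uncertain EIF4A1 (-0.88) were lower, while EIF4A2 (0.33) and EIF4A3 (0.29) were higher. EIF4E and EIF4E2 did not pass, with log2 differences of 0.14 and 0.16 (adjusted p = 0.212 and 0.159 by edgeR). Of the EIF5 and EIF6 genes, EIF5B had an FPKM of 41.5 and 38.3 in SK-MEL-28 siLINC01291 and siNC, against 26.1 and 25.3 in A375 siLINC01291 and siNC (log2 difference 0.80), and EIF5 was higher too (0.41). EIF6 was lower, with 44.8 and 45.1 FPKM in SK-MEL-28 siLINC01291 and siNC, against 92.5 and 106 in A375 siLINC01291 and siNC (-0.98).

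**Figure D5:**
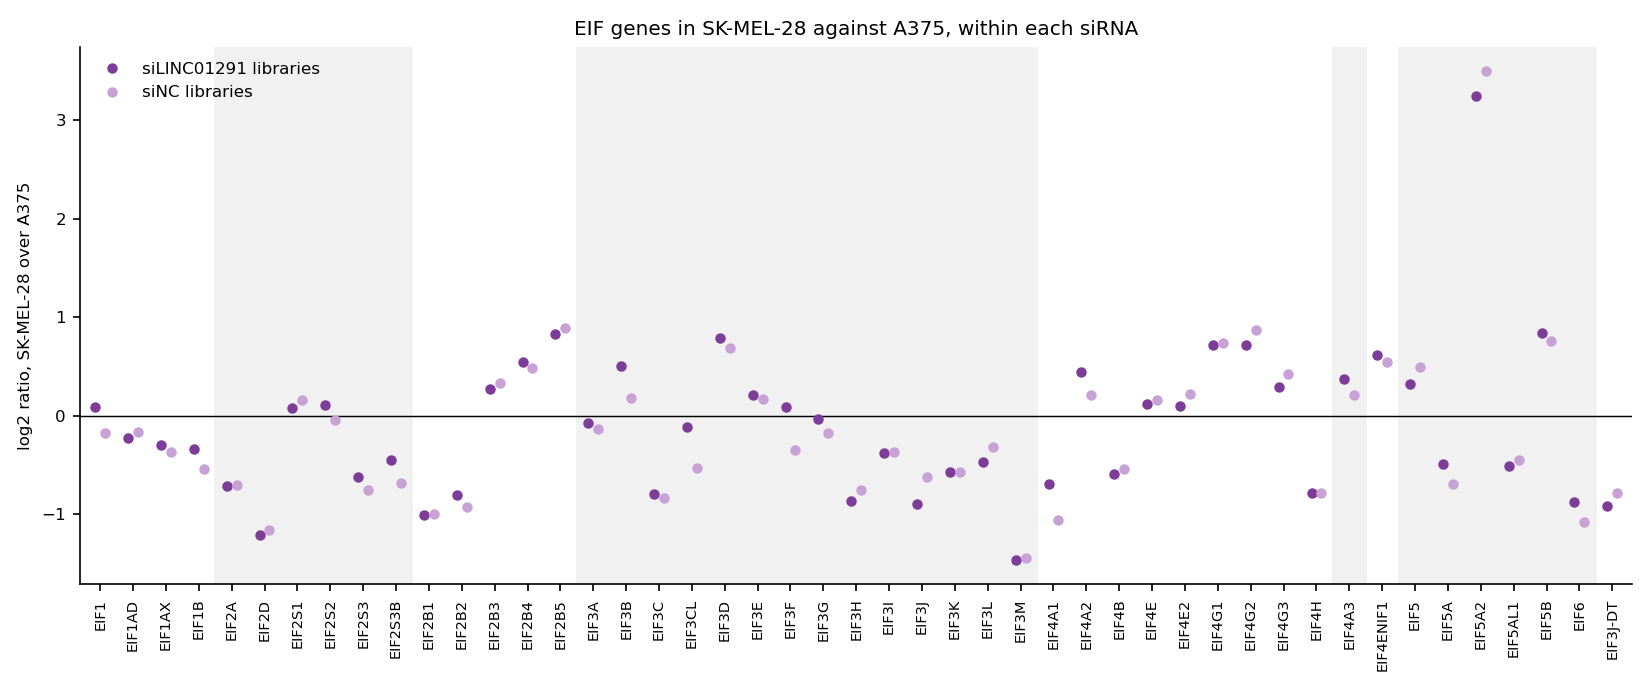
Log2 ratio of SK-MEL-28 to A375 (y) for the 47 tested EIF genes (x, by role), within the siLINC01291 libraries and within the siNC libraries, 1 pair of libraries per point. EIF5A2 stands at 3.25 and 3.49, EIF3M lies lowest, and genes of 1 complex lie on both sides of 0.

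The genes around each EIF gene were set beside it in the line comparison. For each EIF gene the median log2 difference of tested genes within 2000000 bases on either side was taken, a step added after the data were seen. It had the sign of the EIF gene in 38 of 47 cases (80.9%), against 65.0% of 13185 tested genes, and Pearson r was 0.604 across the 47 and 0.247 across all. Both r are across genes of the same 4 libraries, genes are not independent replicates, and some EIF genes share most of a window, such as EIF4G1 with EIF2B5 and EIF3C with EIF3CL. On chromosome 3, the neighbours of EIF4A2, EIF4G1, EIF2B5 and EIF5A2 had medians of 0.84, 0.75, 0.74 and 0.61 on the log2 scale, and those of EIF1B and EIF2A had medians of -0.44 and -0.19. The difference of EIF4G1 (0.73) is near that of its neighbours, and that of EIF5A2 (3.38) is above it. EIF2B2 and EIF3L were lower in SK-MEL-28 (-0.86 and -0.39) beside neighbours with medians of 0.55 and 0.63. Copy number was not measured, and its part in these differences was not tested.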

How the data were processed

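Per the labels' protocols, poly(A) RNA was captured with oligo(dT) beads and reads went through fastp (trimming and duplicate removal), FastQC, a ribosomal RNA filter, HISAT2, StringTie and HTSeq. Removal of duplicates can lower the counts of abundant genes. The submitters' processing notes name hg19, DESeq2 and edgeR without role or version; no source used here names the annotation release, and coordinates come from GENCODE 29 on GRCh38. The count values are raw HTSeq reads for each gene, deposited without scaling. The deposited FPKM equal the deposited CPM divided by 1 length per gene. Columns were mapped to libraries through the library names in the labels.

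Here, edgeR 4.0.16 (R 4.3.3) was run on counts with TMM factors and its quasi-likelihood test with line and siRNA as terms, on genes where at least 2 libraries had an FPKM of 1 or more, and calls used an adjusted p threshold of 0.05. The SE given with edgeR values is the absolute log2 change divided by the square root of the F statistic of that test. The pairing comes from the cell line, which both libraries of a pair share. Within a line, log2 ratios used a prior count of 2 and have exact binomial 95% intervals, which cover counting error only; expression in a line meant an FPKM of 1 or more in either of its libraries. A count of 3, taken as the floor, is a normalised CPM of 0.0884 to 0.110. DESeq2 1.42.0 and limma 3.58.1 on log2(FPKM + 1) were alternatives. The edgeR script was tested on simulated data. Words were searched with Python 3.11.15 and pandas 2.3.3, and drawings used matplotlib 3.10.9.

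The members, lists and tests were chosen with earlier results of these data known. Genes were named by a rule: those called, the 3 highest and 3 lowest log2 ratios per line and the 6 highest and 6 lowest line differences at an FPKM of at least 5, and the EIF4A, EIF4E, EIF4G, EIF5A, EIF1, EIF3C and eIF2 genes; others were chosen after their values were seen, to show each role. TPM was not used.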

Additional observations from a re-analysis of the deposited data

Results flagged for a closer look

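EIF1 stood out because its log2 ratio of siLINC01291 to siNC was 0.0980596 in SK-MEL-28 and -0.16335 in A375, with counting intervals on opposite sides of 0. Each value rests on 1 pair of libraries, and the difference between the lines was not tested.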

How the results depend on the processing

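The count of EIF genes called in the siRNA comparison was 1 with DESeq2 size factors and with library totals only, 2 without a filter on low expression and 2 in DESeq2 (EIF1B and EIF3J in both). It was 0 with an FPKM of at least 5 (edgeR, 10 EIF genes at an unadjusted p under 0.05), 0 in limma on log2(FPKM + 1) (10 such genes) and 0 without the cell line term, the fit with no replicate block (edgeR, 0 such genes). All genes were not counted at that p in these settings, so these EIF counts have no background share. In the main edgeR fit 12 of 47 EIF genes were under it, and of all 13501 genes 1130 were lower and 1152 higher. The calls over all genes moved too. Without the filter 238 of 18175 genes fell and 146 rose, and in DESeq2 203 and 99 of 10098. With an FPKM of at least 5, 27 of 7997 genes fell and 5 rose. In limma these were 5 and 1 of 13501, and without the cell line term 0 and 0 of 13501. The adjusted p of EIF1B ran from 0.00199 to 1 over these alternatives. With library totals and limma, the sign of the change over both lines turned for EIF1 (0.0024 and 0.0012) and EIF2S3 (0.0061 and 0.0049), both near 0. In the line comparison the sign turned for EIF4E (-0.029 and -0.023), EIF4E2 (-0.0064 and -0.0025), EIF2S1 (-0.049 and -0.044) and EIF2S2 (-0.13 and -0.13) under the same settings, and for EIF2S2 with an FPKM of at least 5 (-0.0023). The count of EIF genes called between the lines stayed between 30 and 37. At the lowest, without the siRNA term, 4257 of 13501 genes were lower and 4344 higher. With DESeq2 size factors, where the count was 37, these were 4867 and 4896. The median log2 ratio of the EIF genes ran from -0.09 to -0.04 in SK-MEL-28 and from -0.11 to -0.06 in A375. The cause of these shifts was not tested. Leaving out a library leaves no residual degree of freedom, so it was not run as a test. Depth limits EIF2B5-DT, EIF4EBP3 and EIF3J-DT, whose counts were low.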
